A study of Mus musculus with 6 samples.

Results

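The 10 genes Clock, Arntl, Per1, Per2, Per3, Cry1, Nr1d1, Nr1d2, Dbp and Hlf make up much of the circadian clock and its direct output in mouse skeletal muscle. They were read by gene symbol from the 21572 symbols of the deposited tables, and all 10 had an entry and passed the filter on low expression that left 12247 genes for testing. Polyadenylated RNA was sequenced from soleus, a slow hindlimb muscle, of adult C57BL/6 mice in 6 libraries, 2 in each of 3 groups. The groups were innervated wild-type (WT) soleus, WT soleus denervated for 3 days, and soleus denervated for 3 days from mice labelled Dach2-/-/Hdac9-/-, which lack a transcriptional co-factor and a class II histone deacetylase according to that label. No innervated knockout muscle was analysed here, so every knockout library is also a denervated one. The sources used here do not give how the nerve was interrupted, how the alleles were made, the sex of the mice, whether a library is 1 animal or a pool, or the time of day at which muscles were taken.

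The clock is a loop of transcription factors that runs in almost every cell. CLOCK and ARNTL (also called BMAL1) bind E-boxes as a pair and switch on the Per and Cry genes, whose proteins return to the nucleus and repress that pair. CLOCK and ARNTL also drive Nr1d1 and Nr1d2, which encode the nuclear receptors REV-ERB alpha and beta, and these repress Arntl in turn. Dbp and Hlf encode PAR bZIP factors, which bind D-boxes and carry the rhythm to output genes. In a muscle sampled around the clock, Arntl messenger RNA peaks roughly opposite in phase to Dbp and Nr1d1, and rhythm in muscle is known to touch fuel use and contractile genes.

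The promoter windows below are printed for 5 members whose windows matched the letters of an E-box, E-prime box, D-box or REV-ERB/ROR element. Of these, only Nr1d1 was called in the main tests below. Windows were available for 9 of the 10 members, as 13 windows of 300 bases in RefSeq's GRCm38.p6 annotation, each running from 250 bases before a start site to 50 after it. Motifs were searched on both strands as the E-box CACGTG, the E-prime box CACGTT, the D-box TTATGTAA or TTACGTAA, the REV-ERB/ROR element TAGGTCA or TGGGTCA, and the cyclic AMP element TGACGTCA. These are printed in capitals. Of all 32851 windows in the table, 7.15% held the E-box, 4.68% the E-prime box, 1.06% the D-box, 6.45% the REV-ERB/ROR element and 1.79% the cyclic AMP element.
Arntl promoter, chr7:113207261-113207560, plus strand: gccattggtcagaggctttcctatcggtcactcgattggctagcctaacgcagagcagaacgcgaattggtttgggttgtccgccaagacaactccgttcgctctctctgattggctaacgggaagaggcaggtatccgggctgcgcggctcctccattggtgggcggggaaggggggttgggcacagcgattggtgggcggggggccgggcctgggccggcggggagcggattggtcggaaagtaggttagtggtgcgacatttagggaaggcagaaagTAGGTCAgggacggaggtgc
Per1 promoter, chr11:69098699-69098998, plus strand: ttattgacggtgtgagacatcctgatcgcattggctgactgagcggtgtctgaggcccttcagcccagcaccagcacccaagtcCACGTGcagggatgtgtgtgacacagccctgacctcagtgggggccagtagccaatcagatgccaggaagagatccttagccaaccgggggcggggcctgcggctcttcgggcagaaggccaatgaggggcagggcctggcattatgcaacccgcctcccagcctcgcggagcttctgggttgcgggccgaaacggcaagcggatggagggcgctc
Per3 promoter, chr4:151044616-151044915, minus strand: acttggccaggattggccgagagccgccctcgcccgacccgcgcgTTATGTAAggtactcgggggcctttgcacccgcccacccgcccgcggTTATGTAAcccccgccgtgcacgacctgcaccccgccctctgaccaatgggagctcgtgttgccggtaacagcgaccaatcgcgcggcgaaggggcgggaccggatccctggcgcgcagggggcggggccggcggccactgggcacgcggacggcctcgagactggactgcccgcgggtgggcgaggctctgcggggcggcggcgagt
Cry1 promoter, chr10:85185005-85185304, minus strand: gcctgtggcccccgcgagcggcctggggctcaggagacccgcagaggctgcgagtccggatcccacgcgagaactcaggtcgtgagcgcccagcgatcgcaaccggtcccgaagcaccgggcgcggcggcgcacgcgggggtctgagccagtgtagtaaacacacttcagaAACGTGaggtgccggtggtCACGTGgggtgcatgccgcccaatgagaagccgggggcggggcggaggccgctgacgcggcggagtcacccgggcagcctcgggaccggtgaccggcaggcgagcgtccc
Nr1d1 promoter, chr11:98775328-98775627, minus strand: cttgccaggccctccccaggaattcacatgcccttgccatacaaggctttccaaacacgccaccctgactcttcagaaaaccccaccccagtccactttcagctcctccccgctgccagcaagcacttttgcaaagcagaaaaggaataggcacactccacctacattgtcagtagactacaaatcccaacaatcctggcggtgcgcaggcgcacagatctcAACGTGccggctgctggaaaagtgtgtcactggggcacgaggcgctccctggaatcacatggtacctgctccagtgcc
Arntl, the target of the REV-ERB repressors, held 1 exact match to the REV-ERB/ROR letters in this window. The window of its other start site held no exact match. Per1 held 1 E-box in the window printed and none in that of its other start site. Per3 held 2 D-boxes, Cry1 held 1 E-box and 1 E-prime box, and Nr1d1 held 1 E-prime box. Hlf held 1 cyclic AMP element. The windows of Clock, Nr1d2 and Dbp held none of these letters. A match of letters is not a site shown to be bound. Elements outside 300 bases, and those that depart from these exact letters, were not searched, so a missing match does not show a missing element.

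The libraries held 25529434 to 46305449 fragments. Of 10 skeletal muscle markers 9 were expressed in every library, and Acta1 was listed at 0 in all 6. Their summed level was 32800 and 38700 FPKM (fragments per kilobase of transcript, scaled to library depth by the authors) with the nerve intact, 16300 and 15200 in denervated WT and 12900 and 14100 in the third group, with 4 of 9 tested lower on denervation in WT. Myog, which denervation induces, was at 7.32 to 8.02 FPKM in innervated and at 124 to 418 in denervated libraries. Dach2 was at 0.519 and 0.536 FPKM in denervated WT and at 0.961 and 0.681 in the libraries labelled Dach2-/-/Hdac9-/-, so it was not lower under that label. Hdac9 was at 1.83 and 0.285 FPKM in denervated WT and at 0.534 and 0.181 under that label, with overlap. A value over the whole gene does not check a deletion of part of it. That group is therefore called knockout-labelled. In bulk muscle, fewer cells of a type and less RNA per cell cannot be told apart. Of the other cell types, all 7 adipocyte markers fell on denervation in WT, with a summed level of 984 to 1010 FPKM in innervated and 305 to 338 in denervated libraries. Endothelial markers fell at 7 of 8 (124 to 138 against 52.7 to 62.9 FPKM), smooth muscle markers at 4 of 4 tested (158 to 163 against 67.3 to 81.0), and of 9 Schwann cell markers 6 fell and 1 rose (103 to 104 against 46.2 to 48.4). Macrophage markers rose at 1 of 8, with sums of 120 to 214 FPKM in innervated and 195 to 243 in denervated WT. Fibro-adipogenic progenitor markers fell at 1 of 8, with sums of 772 to 1010 against 388 to 609 FPKM. In this comparison 14.3% of all tested genes fell and 14.4% rose, so a count of 1 of 8 lies near that share. In denervated WT replicate 2, the collagen genes of that list were lower than in replicate 1: Col1a1 at 3.28 against 29.3 FPKM, Col3a1 at 6.93 against 73.6 and Col1a2 at 7.41 against 47.9. The knockout-labelled libraries lay at 270 to 396 FPKM for the adipocyte sum and at 41.8 to 65.9 for the endothelial sum. The clock runs in these cells too, and their part in the values below was not tested.

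**Figure D1:**
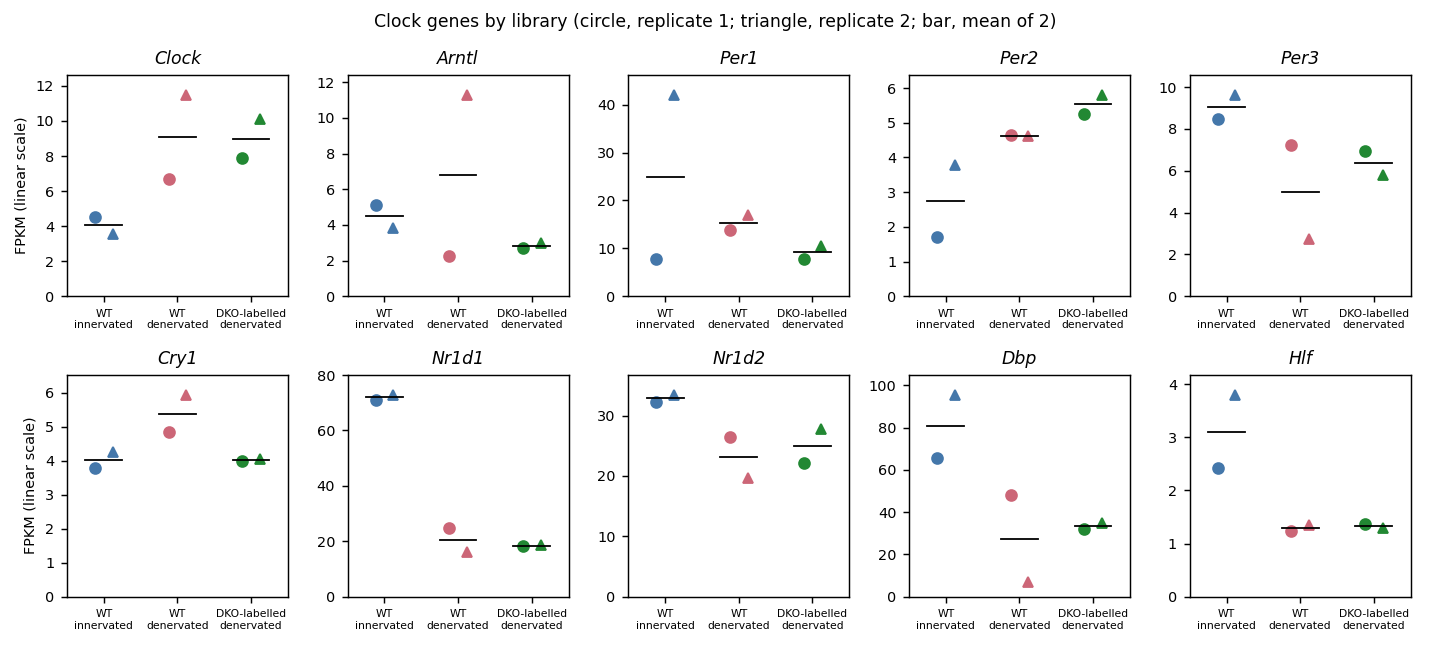
FPKM of each of the 10 clock genes on a linear axis, by group, with 1 point per library (circle, replicate 1; triangle, replicate 2) and a bar at the mean of 2. Nr1d1, Nr1d2, Per3, Dbp and Hlf lie lower, and Clock and Per2 higher, in all 4 denervated libraries than in both innervated ones. Against innervated WT, 71.1% of tested genes did not overlap in denervated WT and 77.4% in knockout-labelled muscle. Arntl, Per3 and Dbp are set apart in denervated WT replicate 2 and Per1 in innervated replicate 2.

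Before any comparison, 2 WT libraries stood apart from their partners in clock genes. In denervated WT muscle, replicate 2 had 4.99-fold more Arntl, 7.05-fold less Dbp and 2.61-fold less Per3 than replicate 1 on the scale of depth-normalized fragment counts (CPM). These were 3 of 10 members at least 2-fold apart, where 10.9% of all tested genes were. A difference as large as that of Arntl was found in 0.866% of tested genes, as that of Dbp in 0.384% and as that of Per3 in 4.87%. Nr1d1 and Nr1d2 differed in the same direction as Dbp, by 1.53-fold and 1.33-fold.

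In innervated WT muscle, the genes that differed were other ones. Replicate 2 had 5.38-fold more Per1 and 2.19-fold more Per2, 2 of 10 members, where 2.58% of tested genes were at least 2-fold apart. Only 0.351% of tested genes differed as much as Per1 and 1.85% as much as Per2. For Per2, however, replicate 1 lay farthest from the remaining libraries, at -1.3 from the gene's mean log2 CPM, with replicate 2 at -0.16. Nr1d1 (1.01-fold) and Nr1d2 (1.03-fold) were nearly level between these libraries. The knockout-labelled libraries had 0 of 10 members at least 2-fold apart, against 5.09% of tested genes, and the widest gap among members was 1.33-fold, in Per1. The sample numbers in the labels form 2 consecutive runs that each hold 1 library of every group, and replicate 2 of every group is from the second run.

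**Figure D2:**
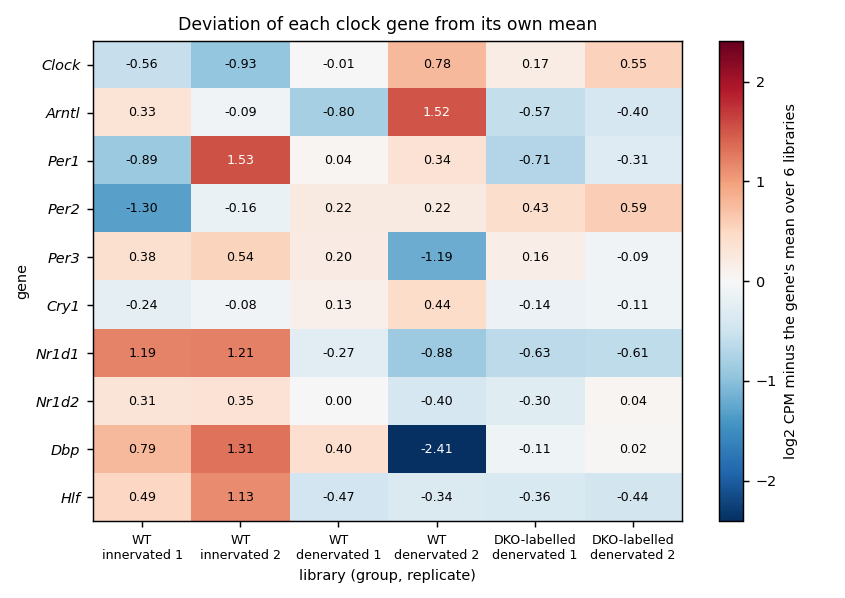
Heat map of log2 CPM of each clock gene minus that gene's own mean over the 6 libraries, with libraries in columns and the value in each cell. Denervated WT replicate 2 holds the highest Arntl value (1.52) and the lowest Dbp value (-2.41) of the plot, and innervated replicate 2 holds the highest Per1 value (1.53).

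The first comparison asked how 3 days of denervation changed clock genes in WT soleus. Nr1d1 fell 3.33-fold and Hlf 2.38-fold, Clock rose 2.25-fold, and 7 of 10 members did not pass the test (edgeR's quasi-likelihood test on fragment counts, adjusted p under 0.05 over all genes tested). A call in either direction was made for 28.7% of all tested genes, higher for 14.4% and lower for 14.3%, so 3 of 10 members called, 1 higher and 2 lower, lies near the background. The median log2 change of the members was -0.55, and that of all tested genes 0.0. Left-out libraries moved the count of members called down or up, and moved the count of all genes called as well. Both ranges are given under how the results depend on the processing. The FPKM ranges of both groups did not overlap for 8 of 10 members, where the same held for 71.1% of tested genes.

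The second comparison set the knockout-labelled libraries against innervated WT, which differ in both nerve supply and genotype. Nr1d1 was 3.53-fold and Hlf 2.37-fold lower, and Clock 2.15-fold and Per2 2.20-fold higher. These 4 members stand against 31.4% of all tested genes called, 15.2% higher and 16.2% lower. Leaving out 1 library moved this count down or up, and moved the count of all genes called as well. The ranges are given under how the results depend on the processing. Ranges did not overlap for 8 of 10 members, against 77.4% of tested genes. Both comparisons use the same 2 innervated libraries, so their values are given side by side and are not independent of each other.

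**Figure D3:**
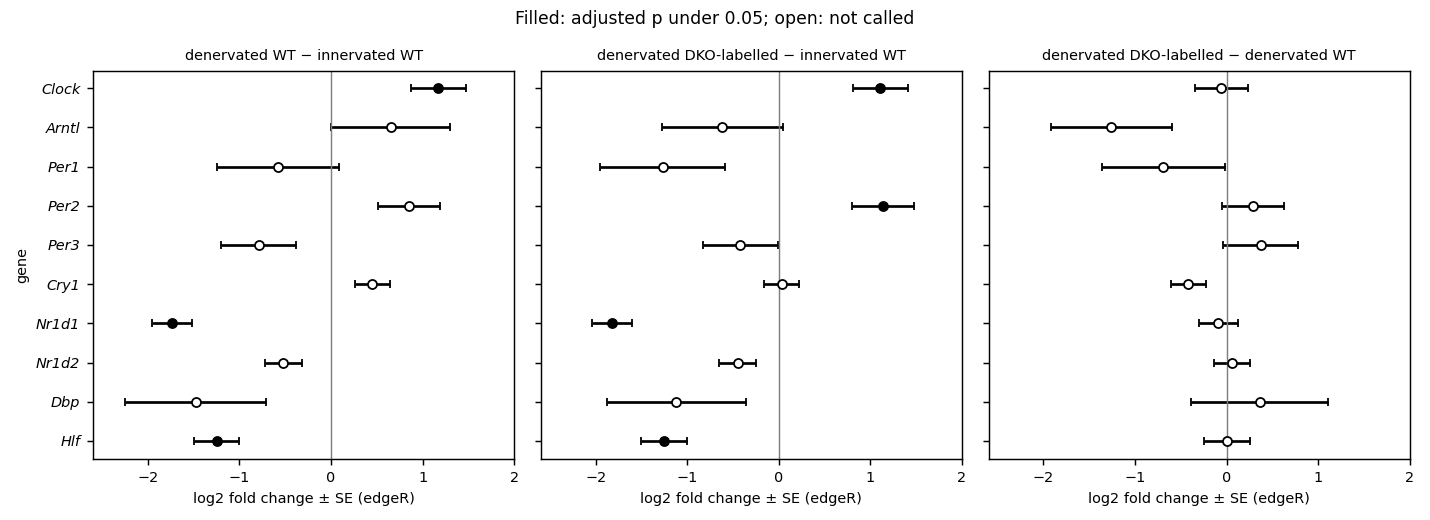
Log2 fold change ± SE of each clock gene from edgeR in the 3 comparisons, with filled points for an adjusted p under 0.05 and open points for members not called. Clock, Nr1d1 and Hlf are filled in both comparisons with innervated muscle, Per2 in the second of them, and none of the 10 in the comparison of both denervated groups.

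Within the positive limb, Clock (chr5:76641201-76733573 on build mm9, the whole gene locus as the files list it, as are all mm9 loci given here) encodes the histone-acetyltransferase partner of ARNTL. It was at 4.54 and 3.56 FPKM with the nerve intact, 6.69 and 11.5 in denervated WT and 7.86 and 10.1 in knockout-labelled libraries. Both denervated groups lay above the innervated one without overlap, while they overlapped with each other. The log2 change was 1.17 ± 0.30 in denervated WT (SE, n = 2 libraries per group, edgeR adjusted p = 0.0304) and 1.11 ± 0.30 in knockout-labelled muscle (edgeR adjusted p = 0.0334), both against innervated WT. Within the runs of sample numbers the WT difference was 0.55 in the first and 1.71 in the second. The WT call was lost without denervated WT replicate 2 (0.72, edgeR adjusted p = 0.0687) and without innervated replicate 1 (1.36, 0.113) or 2 (1.0, 0.183). The knockout-labelled call was lost without either library of either group compared (0.90 to 1.30, edgeR adjusted p of 0.0624 to 0.194).

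Arntl (chr7:120350978-120457636) encodes the second protein of the activator pair, without which the clock stops. Its level was 5.13 and 3.84 FPKM with the nerve intact, 2.28 and 11.3 in denervated WT and 2.68 and 2.99 in knockout-labelled libraries. The denervated WT libraries thus lay on either side of the innervated ones, and both knockout-labelled libraries lay below them. The log2 change on denervation in WT was 0.65 ± 0.65 (edgeR adjusted p = 0.478), made of -1.13 within the first run of sample numbers and 1.62 within the second. Without denervated WT replicate 2 it was -0.94 (edgeR adjusted p = 0.05), and without denervated WT replicate 1 it was 1.37 (edgeR adjusted p = 0.00612). The sign of the Arntl value therefore rested on which denervated WT library was used. Arntl shared 33 exonic bases with the antisense gene Gm45355 in GENCODE M21, and whether the counting used strand is not stated. The listed mm9 locus of Arntl overlapped that of no other entry.

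The ratio of Clock to Arntl FPKM within a library was 0.886 and 0.926 with the nerve intact, 2.94 and 1.02 in denervated WT and 2.93 and 3.39 in knockout-labelled muscle. Both partners were thus at similar levels per length in innervated muscle and in denervated WT replicate 2, and Clock was the higher in the other 3 libraries.

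Of the negative limb, the Per genes encode the period repressors that bind CRY proteins. Per1 (chr11:68912457-68923459), which also answers quickly to cyclic AMP and glucocorticoids, was at 7.82 and 42.1 FPKM with the nerve intact, 13.9 and 16.9 in denervated WT and 7.87 and 10.4 in knockout-labelled libraries. The innervated libraries enclosed all 4 denervated ones. Its WT log2 change was -0.58 ± 0.67 (edgeR adjusted p = 0.535), with 0.93 in the first run of sample numbers and -1.19 in the second. Without innervated replicate 2 the value turned to 1.09 (edgeR adjusted p = 0.0965), and without innervated replicate 1 it was -1.34 (edgeR adjusted p = 0.058).

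Per2 (chr1:93312558-93355905) encodes the period protein most closely tied to clock timing. It was at 1.71 and 3.79 FPKM with the nerve intact, 4.66 and 4.61 in denervated WT and 5.26 and 5.81 in knockout-labelled libraries. The 3 groups were in that order without overlap. Against innervated WT the log2 difference was 0.85 ± 0.34 in denervated WT (edgeR adjusted p = 0.107), which was not called, and 1.14 ± 0.34 in knockout-labelled muscle (edgeR adjusted p = 0.0479), which was. The difference between these denervated groups was 0.29 ± 0.34 (edgeR adjusted p = 0.973). Its SE comes from the fit over all libraries and so also carries the gap between the innervated ones. The knockout-labelled call was lost with genes of mean FPKM 2 or more alone and in all 3 limma fits (edgeR and limma adjusted p of 0.0539 to 0.0627), and without either knockout-labelled library or innervated replicate 1 (0.110 to 0.184).

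Per3 (chr4:150377763-150418731) encodes the third period protein, which modulates the loop without being needed for it. Its level was 8.50 and 9.64 FPKM with the nerve intact, 7.21 and 2.74 in denervated WT and 6.93 and 5.80 in knockout-labelled libraries. All 4 denervated libraries lay below both innervated ones, and denervated WT replicate 2 was the lowest. The WT log2 change was -0.79 ± 0.41 (edgeR adjusted p = 0.182), with -0.18 for the first run and -1.73 for the second. Without denervated WT replicate 1 it was -1.66 (edgeR adjusted p = 0.00233), and without replicate 2 it was -0.27 (edgeR adjusted p = 0.321).

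Cry1 (chr10:84594444-84647799) encodes the cryptochrome repressor that acts late in the cycle. It was at 3.77 and 4.25 FPKM with the nerve intact, 4.83 and 5.93 in denervated WT and 4.0 and 4.06 in knockout-labelled libraries. Denervated WT lay above both other groups without overlap, but the differences were small. The log2 change on denervation was 0.45 ± 0.19 (edgeR adjusted p = 0.118). Between knockout-labelled and WT denervated muscle it was -0.42 ± 0.19 (edgeR adjusted p = 0.854).

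Of the stabilizing loop, Nr1d1 had the lowest adjusted p of all members in both comparisons with innervated muscle. Nr1d1 (chr11:98629248-98636556), which encodes REV-ERB alpha, was at 71.1 and 72.8 FPKM with the nerve intact, 24.6 and 16.0 in denervated WT and 18.4 and 18.5 in knockout-labelled libraries. The 2 innervated libraries were nearly equal, and all 4 denervated ones lay far below them. The log2 change was -1.74 ± 0.22 in denervated WT (edgeR adjusted p = 0.00493) and -1.82 ± 0.22 in knockout-labelled muscle (edgeR adjusted p = 0.00322). Within the runs it was -1.45 and -2.08 in WT, and -1.82 in each run in knockout-labelled muscle. Over 16 alternative analyses the WT value stayed between -2.09 and -1.46, and the call was lost in 1 of them, without innervated replicate 2 (-1.72, edgeR adjusted p = 0.0568).

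Nr1d1 overlaps the thyroid hormone receptor gene Thra tail to tail on the opposite strand, by 263 of 3077 exonic bases in GENCODE M21. The listed mm9 locus of Nr1d1 overlapped that of no other entry, Thra included. If the counted transcripts reached into that stretch, its fragments could not be told apart without a stated strand setting. Thra was at 33.0 and 39.2 FPKM with the nerve intact, 11.2 and 5.38 in denervated WT and 7.42 and 6.57 in knockout-labelled libraries. It fell as well, by 2.03 ± 0.34 on the log2 scale in denervated WT (edgeR adjusted p = 0.00921). The part of the shared stretch in either value was not tested.

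Nr1d2 (chr14:19036569-19071620), the second REV-ERB gene, was at 32.3 and 33.4 FPKM with the nerve intact, 26.4 and 19.7 in denervated WT and 22.2 and 27.8 in knockout-labelled libraries. It was lower in all 4 denervated libraries, by less than Nr1d1. The log2 changes against innervated WT were -0.52 ± 0.20 in denervated WT (edgeR adjusted p = 0.0928) and -0.45 ± 0.20 in knockout-labelled muscle (edgeR adjusted p = 0.125), and neither was called. The ratio of Nr1d1 to Nr1d2 FPKM was 2.20 and 2.18 with the nerve intact, 0.931 and 0.809 in denervated WT and 0.830 and 0.663 in knockout-labelled libraries. Nr1d1 was thus the more abundant REV-ERB transcript per length in innervated muscle, and Nr1d2 in all 4 denervated libraries.

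Of the output genes, Dbp (listed at chr7:52960616-52973372) encodes the D-box activator, whose transcript has one of the widest daily swings in most tissues. It was at 65.7 and 95.4 FPKM with the nerve intact, 47.9 and 6.73 in denervated WT and 32.0 and 34.7 in knockout-labelled libraries. All denervated libraries were below the innervated ones, but the 2 denervated WT libraries were far apart. The WT log2 change was -1.48 ± 0.77 (edgeR adjusted p = 0.186), with -0.38 in the first run of sample numbers and -3.73 in the second. Without denervated WT replicate 1 it was -3.50 (edgeR adjusted p = 0.00115), and without replicate 2 it was -0.67 (edgeR adjusted p = 0.0986). The files list 1 locus for Dbp and its opposite-strand neighbour Sphk2, with which Dbp shares 539 of 2993 exonic bases in GENCODE M21. Sphk2 was at 5.78 and 5.89 FPKM with the nerve intact and at 6.32 and 8.33 in denervated WT, so it did not share the low value of Dbp in denervated WT replicate 2.

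Hlf (chr11:90197848-90252231), a PAR bZIP gene like Dbp, was at 2.42 and 3.80 FPKM with the nerve intact, 1.24 and 1.35 in denervated WT and 1.37 and 1.29 in knockout-labelled libraries. The 4 denervated libraries lay close together, denervated WT replicate 2 included. The log2 change was -1.25 ± 0.25 both in denervated WT (edgeR adjusted p = 0.0166) and in knockout-labelled muscle (edgeR adjusted p = 0.0144). Within the runs it was -0.96 and -1.47 in WT. With quantile normalization in limma the WT call was lost (-0.83, adjusted p = 0.0539), as it was without innervated replicate 2 (-0.89, edgeR adjusted p = 0.118), and with a filter of mean FPKM 2 the gene was not tested. The knockout-labelled call was lost in the same limma fit (0.0519) and without innervated replicate 2 or either knockout-labelled library (edgeR adjusted p of 0.0634 to 0.107). The ratio of Dbp to Hlf FPKM was 23.3 to 38.5 in 5 libraries and 4.99 in denervated WT replicate 2.

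The third comparison set knockout-labelled against WT muscle, both denervated. It called 0 of 10 members in edgeR, where 5 of 12247 genes, or 0.0408%, were called and 748 had an unadjusted p under 0.05. None of the 10 members had an unadjusted p under that value, the smallest being 0.0659 for Cry1. DESeq2 and limma also called none of the 10. Ranges did not overlap for Per1, Per2 and Cry1, 3 of 10 members against 29.8% of tested genes. Per1 was lower in knockout-labelled libraries at -0.69 ± 0.67, and Arntl was at -1.26 ± 0.66.

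The missing calls do not show that the groups are alike, and the intervals differ in width from gene to gene. The 95% interval of the log2 difference ran from -0.60 to 0.43 for Nr1d1, from -0.41 to 0.54 for Nr1d2 and from -0.60 to 0.61 for Hlf. For Arntl it ran from -2.85 to 0.32 and for Dbp from -1.45 to 2.16. That of Per1 ran from -2.30 to 0.91, with denervated WT libraries 1.23-fold apart and innervated ones 5.38-fold apart. Without denervated WT replicate 1, the log2 difference was -2.0 for Arntl and 2.38 for Dbp, both at an edgeR adjusted p of 0.0397. Without denervated WT replicate 2, Arntl turned to 0.32 and Dbp to -0.45, with adjusted p of 0.820 and 0.699. In this comparison 3 of 10 members had the same sign in both runs of sample numbers, and in each comparison with innervated WT 8 of 10 had. The share over all tested genes was not computed, so these counts are not read as a trait of the members.

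**Figure D4:**
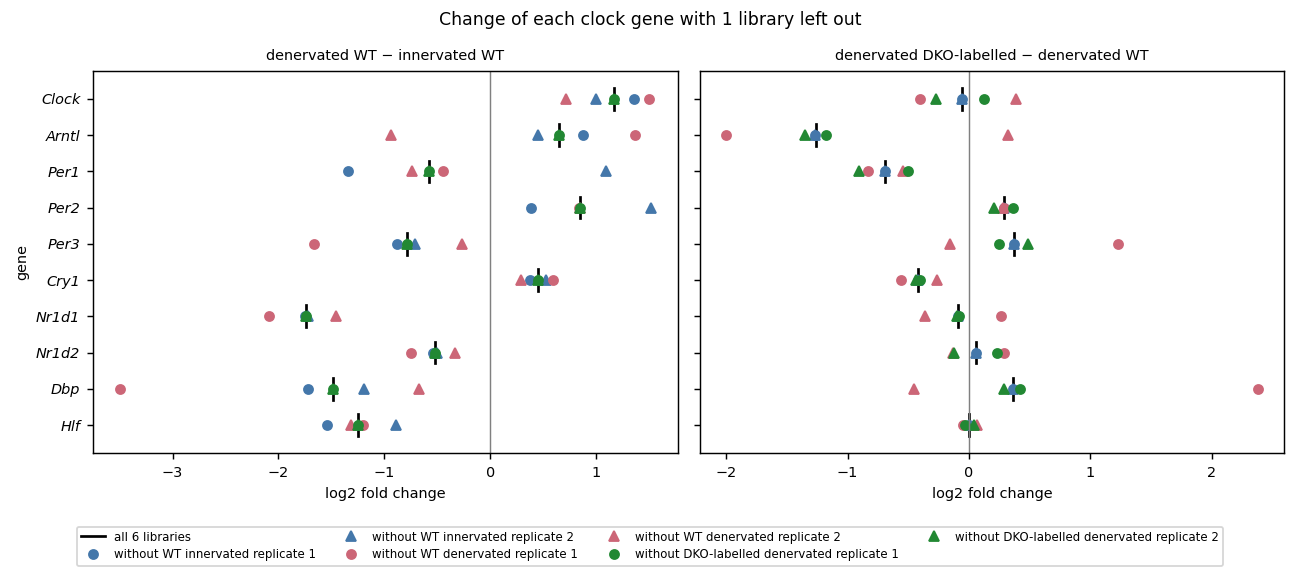
Log2 fold change of each clock gene with all 6 libraries (bar) and with 1 library left out (points, coloured by the group of the library left out; circle, replicate 1; triangle, replicate 2), for denervated against innervated WT on the left and knockout-labelled against WT denervated muscle on the right. Arntl moves from 1.37 to -0.94 on the left as one or the other denervated WT library is left out, whereas Nr1d1 stays between -2.09 and -1.46.

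Ratios of Arntl to Dbp, Nr1d1 and Per3 within a library are free of scaling between libraries. Arntl, Dbp and Per3 had already been seen to differ between the denervated WT libraries. These ratios restate those gaps and are not a separate finding. The ratio of Arntl to Dbp FPKM was 0.0781 and 0.0403 with the nerve intact, 0.0476 and 1.68 in denervated WT and 0.0839 and 0.0862 in knockout-labelled libraries. That of Arntl to Nr1d1 was 0.0528 to 0.162 in 5 libraries and 0.707 in denervated WT replicate 2, and that of Arntl to Per3 was 0.316 to 0.603 against 4.12. In FPKM order within a library, Dbp ranked 1 or 2 among the 10 genes in 5 libraries and 6 in denervated WT replicate 2. Hlf ranked 10 in all 4 denervated libraries, and Per2 and Clock ranked 10 in innervated replicates 1 and 2.

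Denervated WT replicate 2 also stood apart over all genes. On the second principal component, which held 13.1% of the variance, it was at 45.0 and the other 5 libraries were between -29.4 and 8.8. The first component held 71.7% and separated innervated (-76.6 and -74.5) from denervated libraries (20.6 to 50.4). Whether what sets this library apart and its clock gene values have a common source was not tested.

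Other transcription factors of the clock loops were listed as 11 further genes with an entry, of which 8 passed the filter. Of these, 0 rose and 0 fell in either comparison with innervated WT (edgeR), where 28.7% and 31.4% of all tested genes were called. Their median log2 change was -0.19 in denervated WT and -0.34 in knockout-labelled muscle, against 0.0 and 0.01 over all tested genes. Cry2, the second cryptochrome gene, was at 13.2 and 17.6 FPKM in innervated and 13.9 and 15.9 in denervated WT. Tef, the third PAR bZIP gene, was at 64.1 and 79.0 FPKM with the nerve intact and at 78.1 and 59.9 in denervated WT, so its groups overlapped where those of Dbp and Hlf did not. Gm129, the symbol used in the files for the repressor also called Ciart or Chrono, was at 4.13 and 20.3 FPKM with the nerve intact, 4.01 and 2.11 in denervated WT and 1.54 and 2.74 in knockout-labelled libraries. It followed Per1 in being high in innervated replicate 2, where 0.367% of tested genes differed as much. Rora, which encodes an activator that competes with REV-ERB at its element, was not called, at 0.51 ± 0.31 on the log2 scale in denervated WT (edgeR adjusted p = 0.247).

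Kinases and ubiquitin ligases that act on clock proteins changed at 1 of 11 tested genes, where 28.7% of all tested genes were called. Btrc encodes an F-box ligase that targets PER proteins. Its transcript fell by 0.74 ± 0.17 on the log2 scale (edgeR adjusted p = 0.0251) in denervated WT. In knockout-labelled muscle it fell by 0.69 ± 0.17 (edgeR adjusted p = 0.0276). The casein kinase genes Csnk1d and Csnk1e, whose products phosphorylate PER, were at 0.17 and 0.11 and were not called. Of 15 clock co-regulators, 2 rose and 2 fell on denervation in WT, close to that share. Nono and Sfpq encode RNA-binding proteins that bind PER complexes. Their transcripts rose by 0.92 ± 0.17 and 0.95 ± 0.23 (edgeR adjusted p = 0.0126 and 0.0270). Nampt, which encodes an enzyme of NAD synthesis and is itself a clock output, fell by 1.11 ± 0.23 (edgeR adjusted p = 0.0177). The histone methyltransferase gene Mll1 fell by 0.60 ± 0.17 (edgeR adjusted p = 0.0390). Ncor1 encodes the co-repressor that REV-ERB recruits. Its transcript was at -0.44 in denervated WT (edgeR adjusted p = 0.0540) and fell by 0.50 in knockout-labelled muscle (edgeR adjusted p = 0.0350). The medians over both lists were -0.12 and 0.0, close to that of all genes.

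Of 15 muscle genes known as clock outputs, 4 rose and 7 fell in denervated WT, with a median log2 change of -1.11. Over all tested genes 14.4% rose, 14.3% fell and the median was 0.0. The list was chosen with earlier results of these data known. The higher share is therefore not read as a trait of clock outputs. Lpl, which encodes a lipase of fatty acid uptake, fell by 3.16 ± 0.26 (edgeR adjusted p = 0.00221). The muscle regulator gene Myod1 rose by 4.0 ± 0.48 (edgeR adjusted p = 0.00433). The cell cycle inhibitor gene Cdkn1a rose by 4.14 ± 0.58 (edgeR adjusted p = 0.00625). The cold-inducible RNA-binding protein gene Rbm3 rose by 1.74 ± 0.22 (edgeR adjusted p = 0.00497). The others called were Tbc1d1 among those that rose, and Tcap, Ucp3, Pdk4, Slc2a4, Ppargc1a and Nampt among those that fell. Of the same list, 4 rose and 6 fell in knockout-labelled against innervated WT muscle. In the comparison of both denervated groups, 0 of the genes tested in these 4 lists were called in edgeR.

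By similarity of pattern, 3 genes were sought for each member called in a comparison, as the smallest root-mean-square difference of centred log2 CPM over the 6 libraries, among genes of a comparable spread. Nearest to Nr1d1 were Abhd8 (0.073), Sh3bgr (0.080) and Auh (0.083), out of 4510 genes. Nearest to Clock were Agpat5 (0.030), Wdr75 (0.083) and Ndfip2 (0.098). Per2 had Klhl15 (0.111), Chka (0.162) and Tuba4a (0.182) nearest, and Hlf had 1300014I06Rik (0.038), Cox4i2 (0.052) and Pim3 (0.073). None of these 12 genes is a member or on the lists of clock genes above.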

How the data were processed

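Raw fragments per gene, which are estimated counts and 88.4% to 89.0% whole numbers, were deposited with FPKM and with externally scaled fragments, a signal that the authors made by multiplying the raw fragments by 1 factor per library, per the file headers. The scaled fragments were not tested. The FPKM values were computed by the authors and are read here as levels per length. Per the submitters' processing notes, TopHat2 2.0.3, Bowtie2 2.0.0.7 and Cuffdiff 2.0.2 were among the tools and mm9 was the build. The sources used here do not give the annotation or the strand setting. Every gene line stood 3 times in each file and was read once, and several entries of 1 symbol were summed for 149 symbols.

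Fragments were rounded to whole numbers and fitted in edgeR 4.0.16 (R 4.3.3) by the quasi-likelihood test, with TMM scaling and 1 fit of 3 group means over 6 libraries (3 residual degrees of freedom, common biological coefficient of variation 0.222). Genes with a mean FPKM of at least 0.5 were tested, 12247 in all. Adjusted p-values are Benjamini-Hochberg values over all of them, two-sided, called under 0.05. CPM values use the TMM scaling, and SD rests on 2 libraries per group. SE comes from the 1 fit over all 6 libraries, so it also carries the spread of the group outside a comparison. The procedure was tested on simulated data. The alternatives were DESeq2 1.42.0, limma 3.58.1 on log2(FPKM + 0.5) or log2(FPKM + 1), other scalings and filters, each pair of groups alone, a replicate block and each library left out. Limma fold changes on the log2(FPKM + pseudocount) scale understate changes of low genes.

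Nothing in the labels says that libraries of a group come from separate animals, so the spread behind the p-values is that between libraries and may be technical. The members and gene lists were chosen with earlier results of these data known. All 10 members are given in full. From the other lists, called genes are given with values, up to 4 per list by smallest p outside the clock-loop list. The other called muscle output genes are listed without values. Sik1, Junb, Atf3, Col1a1, Col3a1, Col1a2, Cry2, Tef, Gm129, Nfil3, Rora, Csnk1d, Csnk1e, Ncor1, Fkbp5, Cebpd, Ddit4, Thra and Sphk2 were named after their values or positions were seen.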

Additional observations from a re-analysis of the deposited data

How the results depend on the processing

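Of 159 member values recomputed per comparison, direction and side of the threshold were kept in 144 for denervated against innervated WT, 135 for knockout-labelled denervated against innervated WT, and 141 for knockout-labelled against WT denervated muscle. For denervated against innervated WT, 5 members were called with library totals only, and leaving out 1 library gave 0 to 8 members and 202 to 5357 genes. Library totals only moved the median log2 change of all genes to 0.27 there, with 74.4% of calls higher, and to 0.33 and 75.1% for knockout-labelled against innervated WT. In that comparison 2 members were called with a filter of mean FPKM 2 and 2 in limma with quantile normalization, and leaving out 1 library gave 1 to 6 members and 661 to 5517 genes. For knockout-labelled against WT denervated muscle, the 5 genes called became 10 with RLE size factors, 3 with library totals only, 182 in DESeq2, 60 without a filter, 2 with a filter of mean FPKM 2, 33, 33 and 34 in limma with a pseudocount of 0.5, of 1 and with quantile normalization, and 0 with both groups alone. Leaving out 1 library gave 0 to 119 genes and 0 to 2 members. The sign of the Clock value there turned to 0.0 with library totals only, 0.02 in limma with either pseudocount and 0.05 with quantile normalization, and that of Hlf to -0.01 with RLE size factors and in DESeq2. Cry1 turned to -0.01 in knockout-labelled against innervated WT with a filter of mean FPKM 2. With 1 library left out, signs turned within these ranges: -0.94 to 1.37 for Arntl and -1.34 to 1.09 for Per1 (denervated against innervated WT), -0.40 to 0.39 for Clock, -2.0 to 0.32 for Arntl, -0.16 to 1.23 for Per3, -0.36 to 0.26 for Nr1d1, -0.13 to 0.29 for Nr1d2, -0.45 to 2.38 for Dbp and -0.05 to 0.07 for Hlf (knockout-labelled against WT, both denervated), and -2.03 to 0.40 for Per1 and -0.04 to 0.11 for Cry1 (knockout-labelled against innervated WT). The cause was not tested. A block on the runs of consecutive sample numbers (replicate block) changed no member count, which stayed at 3, 0 and 4. The correlations between groups of the differences between runs were 0.19, 0.11 and 0.40, and no label says that the runs pair the libraries. Where a group is left with 1 library, that library is assumed to vary like the other groups.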

Other observations

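Cyclic AMP and calcium are signals that also induce Per1. Of 13 tested genes that answer to them, 9 fell, 1 rose and 3 were not called in denervated against innervated WT (edgeR), with a median log2 change of -1.95. Over all tested genes 28.7% were called and the median was 0.0. This list too was chosen with earlier results of these data known, so its share is not read as a trait of such genes. The immediate early gene Nr4a1 was at 59.7 and 106 FPKM with the nerve intact, 5.81 and 2.16 in denervated WT and 3.62 and 3.42 in knockout-labelled libraries. Fos was at 21.4 and 15.4, 2.93 and 1.25, and 3.18 and 2.28 FPKM in the same order. The log2 changes in WT were -4.28 ± 0.52 for Nr4a1, -4.20 ± 0.51 for Nr4a2, -3.05 ± 0.43 for Fos and -1.95 ± 0.23 for the phosphatase gene Dusp1 (edgeR adjusted p of 0.00431 to 0.00633). Sik1, a kinase gene induced by cyclic AMP, rose by 1.48 ± 0.38 (edgeR adjusted p = 0.0328), while Junb was at 0.03 and Atf3 at 0.44, not called.

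Of 14 glucocorticoid-responsive genes, 2 rose and 4 fell in denervated WT (median log2 change -0.26), 6 of 14 against 28.7% of all tested genes called. The same limit on the choice of the list holds here. The metallothionein gene Mt2 rose by 5.12 ± 0.53 (edgeR adjusted p = 0.00324). The transcription factor genes Zbtb16, Klf9 and Klf15 fell by 1.63 ± 0.18, 1.27 ± 0.18 and 1.73 ± 0.25 (edgeR adjusted p = 0.00357, 0.00612 and 0.00648). Fkbp5 was at 5.87 and 27.0 FPKM in the denervated WT libraries, a 4.64-fold gap in the direction of that of Arntl, and at 10.7 and 9.14 in the knockout-labelled ones. Genes of this list differed in both directions between the denervated WT libraries, with Sgk1 at 34.6 and 23.7 FPKM and Tsc22d3 at 62.6 and 110. In innervated WT, replicate 2 had 3.64-fold more Ddit4 and 3.20-fold more Cebpd than replicate 1, in the direction of the Per1 gap. It also had 2.88-fold more Nfil3, which is on the clock-loop list instead. Gaps as large were found in 0.645%, 0.931% and 1.07% of tested genes. Of the glucocorticoid list, Pdk4, Mt2 and Nr3c1 were lower in innervated replicate 2, and the remaining genes were higher by smaller folds. Whether any of these gaps share a source was not tested. In the comparison of knockout-labelled with WT denervated muscle, 0 genes of either list were called in edgeR.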
